A study of Mus musculus with 24 samples.

Results

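The proteasome is the barrel-shaped protease that degrades most ubiquitin-tagged proteins of the cell. Its genes were described in MMH-D3 cells, a mouse hepatocyte line, over 24 arrays. The members were all genes whose single symbol in the array annotation began with Psma, Psmb, Psmc, Psmd, Psme, Psmf or Psmg followed by a digit, and where a gene had several probe sets the one brightest on average stood for it. The rule gave 49 genes of the 18193 with a single symbol, and 46 of them passed the filter on low values (a log2 level of at least 5 on at least 6 arrays), among 9825 genes in all that did. Of the 49, 47 encode proteasome components, assembly factors or regulators, and 44 of these 47 were measured. Psmc3ip, a meiotic recombination factor, and Psme3ip1, a partner of the activator Psme3, matched by symbol only.

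Confluent cells of the line were differentiated in medium with DMSO and then given a serum shock, a brief exposure to concentrated serum used to bring the clocks of the cells into phase. All 24 samples shared this treatment and 1 was collected every 2 h, from 12 h to 58 h after the shock. No time point had a replicate, separate cultures are not mentioned in the labels, and no unshocked sample was analysed here. The spread used for every test is therefore that of neighbouring arrays, which may be technical in part.

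The core of the proteasome is a stack of rings in which alpha subunits form the outer gates and beta subunits carry the protein-cutting sites. A regulatory particle caps the core: its base unfolds the substrate with ATPases of the Psmc family, and its lid, made of Psmd subunits, removes the ubiquitin chain. In immune cells and under interferon, the cutting subunits Psmb5, Psmb6 and Psmb7 are replaced by Psmb8, Psmb9 and Psmb10, which gives the immunoproteasome and alters the peptides available for presentation. Transcription of proteasome genes is known to rise through the factor Nfe2l1 when proteasome activity falls short, and that factor is known to matter for liver homeostasis.

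RefSeq promoters were in hand for 41 of the 49 members, and 4 are shown, each covering the 250 bases before the annotated start on build GRCm38.p6. Psmb10 and Psmb8 are shown as the immunoproteasome genes that moved in opposite directions, and Psmb5 and Psmc6 as genes with a match to the antioxidant response element that Nfe2l1 and Nfe2l2 are known to bind. The motifs, searched on both strands, were TGACNNNGC for that element, CCAAT for the NF-Y box and TTCNNNGAA for the gamma-activated site, and capitals mark a match. Psmb10 (chr8:105938393-105938642, minus strand) had no match, Psmb8 (chr17:34197945-34198194, plus strand) had 1 to the gamma-activated site, and Psmb5 (chr14:54617996-54618245, minus strand) and Psmc6 (chr14:45329574-45329823, plus strand, matched on the opposite strand) had 1 each to the antioxidant element.
Psmb10: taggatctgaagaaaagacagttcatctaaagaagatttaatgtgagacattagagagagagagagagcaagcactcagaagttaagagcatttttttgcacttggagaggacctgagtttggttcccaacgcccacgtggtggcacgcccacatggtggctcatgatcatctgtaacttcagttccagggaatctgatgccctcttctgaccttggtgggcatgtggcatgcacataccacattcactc
Psmb8: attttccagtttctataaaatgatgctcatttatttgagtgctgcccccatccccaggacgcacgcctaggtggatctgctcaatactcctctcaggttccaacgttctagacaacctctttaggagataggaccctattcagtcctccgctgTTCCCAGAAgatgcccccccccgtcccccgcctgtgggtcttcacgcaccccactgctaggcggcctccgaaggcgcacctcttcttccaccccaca
Psmb5: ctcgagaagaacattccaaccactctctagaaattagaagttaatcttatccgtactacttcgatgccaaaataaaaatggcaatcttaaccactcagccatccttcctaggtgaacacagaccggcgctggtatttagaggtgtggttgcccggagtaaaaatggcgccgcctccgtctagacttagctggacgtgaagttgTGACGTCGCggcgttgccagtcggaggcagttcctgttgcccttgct
Psmc6: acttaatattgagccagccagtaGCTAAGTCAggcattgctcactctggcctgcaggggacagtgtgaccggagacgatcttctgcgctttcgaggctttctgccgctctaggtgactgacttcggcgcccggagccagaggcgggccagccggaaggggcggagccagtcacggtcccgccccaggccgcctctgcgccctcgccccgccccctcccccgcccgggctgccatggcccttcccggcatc

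The antioxidant element was found in 5 of the 41 member promoters (12.2%), against 11.5% of the 27025 promoters searched. CCAAT was found in 16 (39.0%), against 37.5% of all promoters. The gamma-activated site, which mediates responses to interferon gamma, was found in 2, Psmb8 and Psmg1 (4.88%), against 8.13%. The 5 genes with the antioxidant element were Psmb5, Psmb6, Psmc6, Psmd12 and Psmd9. These letters describe the window only and say nothing of binding.

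Most proteasome transcripts kept a narrow range over the course. Of the 46 measured members, 41 had a difference between their highest and lowest array of under 1 log2 unit, against 71.0% of all genes. Among genes with a mean log2 level of at least 10 the same held for 37 of 40 members, against 86.0% of all such genes. The median difference between highest and lowest array was 0.472 log2 units for the members, against 0.752 for all genes. Among genes with a mean of at least 10 the gap was smaller, with medians of 0.448 for members and 0.61 for all such genes. The smallest difference of a member was 0.201 for Psma1, a gate subunit, and the largest was 1.75 for Psmb10. The other members over 1 were Psmb8 at 1.06, the ATPase gene Psmc4 at 1.29, the assembly chaperone gene Psmg4 at 1.01 and the activator gene Psme3 at 1.2. The median of the 44 proteasome genes, each set against its own mean at 12 to 18 h, stayed between -0.107 at 18 h and 0.0787 at 42 h on the log2 scale.

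**Figure D1:**
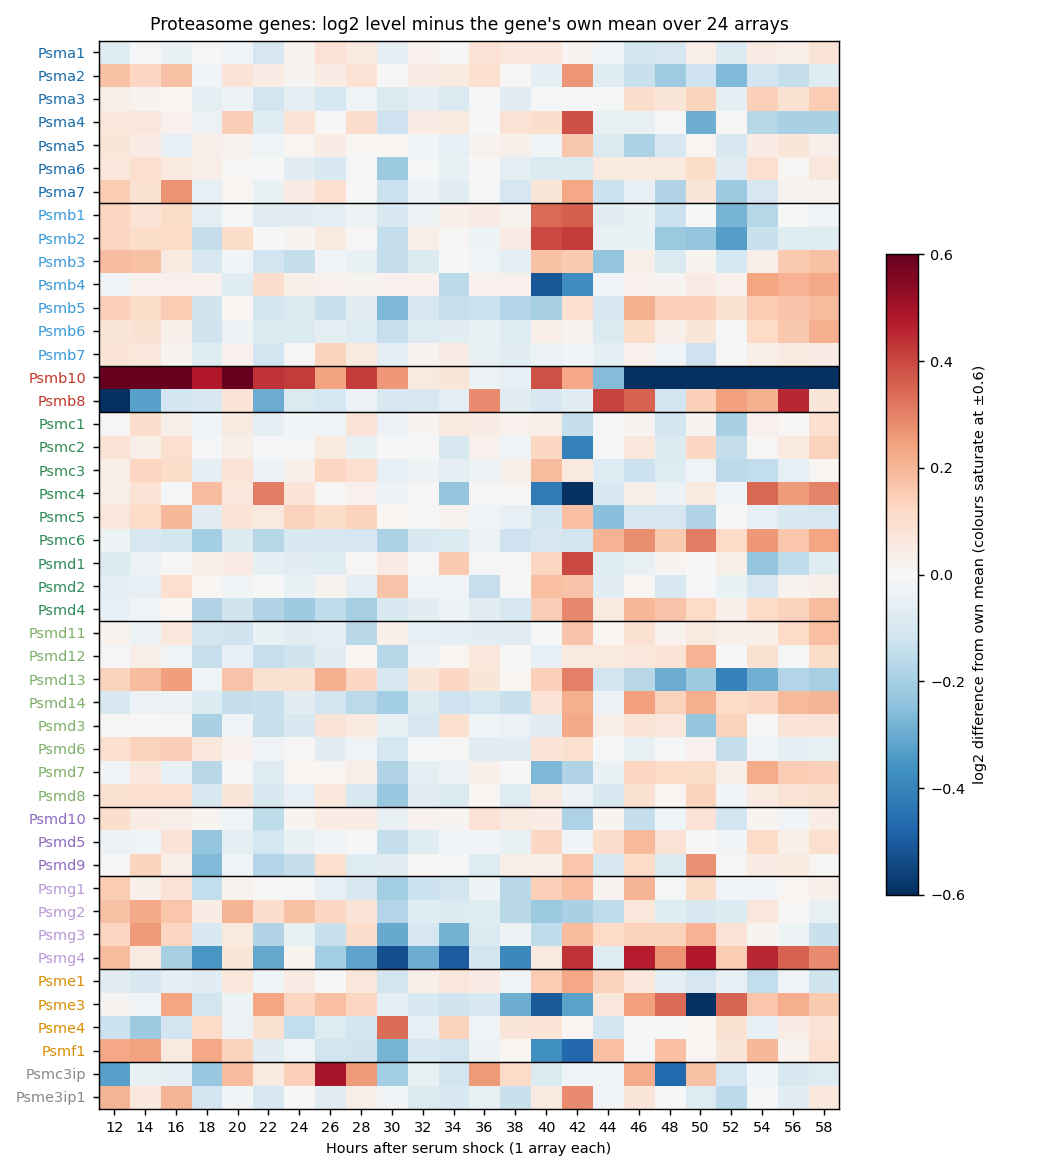
Log2 level of each of the 46 measured members at each hour after the serum shock, minus that gene's own mean over the 24 arrays, with 1 array per column and rows grouped by role (row labels share a colour within a role and black lines part the groups). Psmb10 passes from the red to the blue end of the scale over the course, while most rows stay pale apart from single columns such as 30, 40 and 42 h.

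No member had a called 24 h rhythm by limma's moderated F test after Benjamini-Hochberg adjustment, where 2.77% of all genes did. At an unadjusted p under 0.05, 5 of 46 members passed, against 20.6% of all genes: Psmb1, Psmb2 and Psmb3 of the beta ring, the ubiquitin receptor gene Psmd4 and the lid gene Psmd6. Psmb1 had the smallest p, with an amplitude of 0.134 ± 0.0334 log2 units (SE) and a first fitted peak at 15.4 h (adjusted p = 0.0609). It passed when the drift was made quadratic (adjusted p = 0.0228) or left out (0.0473), and without the array at 18 h (0.0381) or at 38 h (0.0478). Without 40 and 42 h together, the amplitude of Psmb1 was 0.074 ± 0.0221 and was not called (adjusted p = 0.123). Without 44 to 58 h it was 0.121 ± 0.0344, also not called (adjusted p = 0.0801). The median fitted amplitude was 0.0534 over the members and 0.0816 over all genes, on the log2 scale.

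Over the 46 h, the fitted linear change was positive and called for 10 members (26.3% of all genes rose) and negative and called for 5 (16.4% of all genes fell), and 31 of 46 were not called. The median fitted change was 0.0252 over the members and 0.0733 over all genes. Called members lay in both directions in 4 of the 7 groups other than the immunoproteasome, as the plot of fitted changes shows: the lid had 3 risers and 1 faller, the base 2 and 1, the alpha ring 1 and 1, the core chaperones 1 and 1, the beta ring 1 and 0, the base chaperones 1 and 0, and the activators 0 and 0. With each array centred on its median, the split was 5 risers to 6 fallers, and with quantile normalization 9 to 6. On the arrays up to 42 h alone, which are fewer, 2 of the 15 called changes kept their call, the falls of Psmb10 and Psmg2. The others were not called there, 9 with the same sign and 4 with the opposite sign. Most of the calls over 46 h thus depended on the arrays from 44 h on. In bulk RNA, fewer cells of a type and less transcript per cell cannot be told apart.

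**Figure D2:**
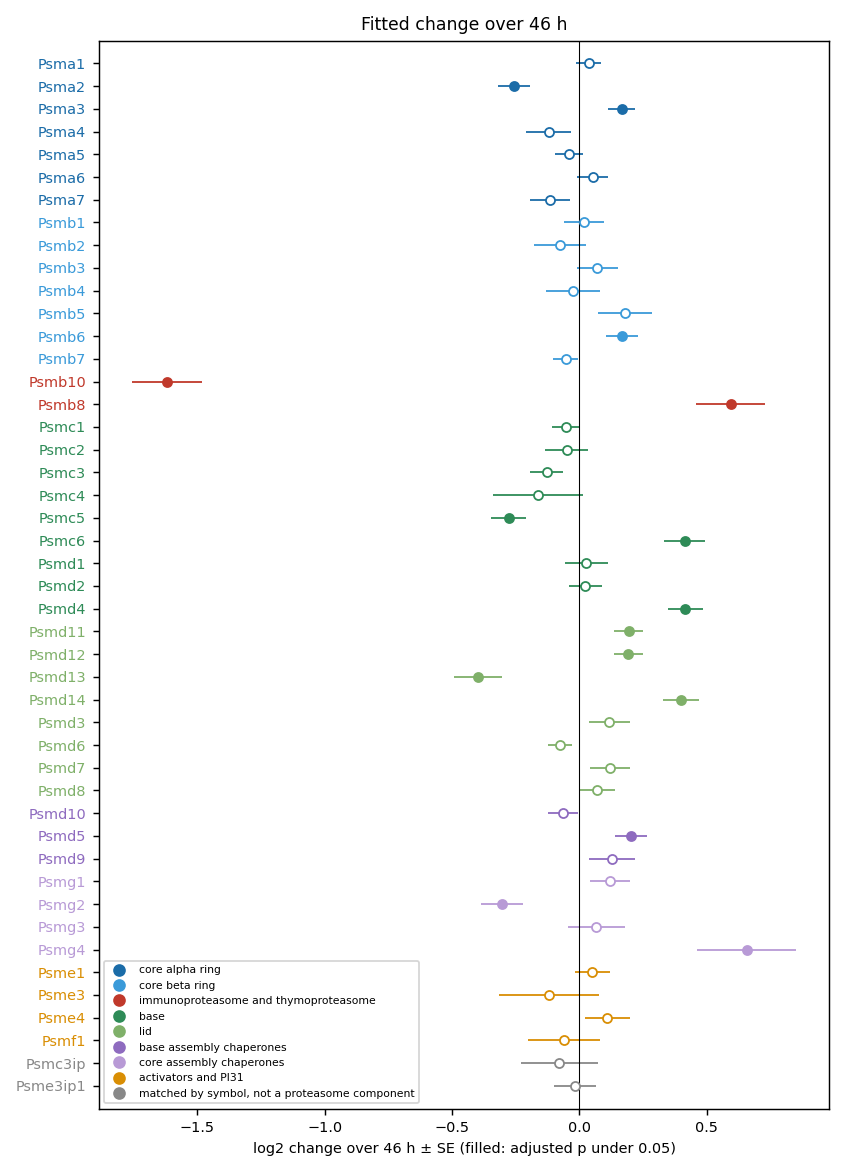
Fitted linear change over 46 h on the log2 scale for each of the 46 measured members, with the standard error of the fit as bars and filled points for adjusted p under 0.05, coloured by role. Psmb10 stands at -1.62 and the next largest fall is Psmd13 at -0.40, while the largest rises are Psmg4 at 0.66 and Psmb8 at 0.59.

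Spans of 4 consecutive arrays were then compared in 4 pairs. No member was called higher or lower at 20 to 26 h than at 12 to 18 h by limma, where 6.95% of all genes were higher and 6.12% lower, and 4 members passed at an unadjusted p under 0.05, against 28.3% of all genes. At 36 to 42 h against 12 to 18 h, 1 member was higher (14.3% of all genes) and 4 were lower (12.1%). The step comparison, 44 to 50 h against 36 to 42 h, was chosen because earlier results of these data showed a step there. Its p-values are therefore not those of a test set in advance of the data. In it, 5 members were higher (20.5% of all genes) and 7 lower (12.7%). That split was 2 to 11 with centred arrays and 7 to 8 with quantile normalization, and the higher count was 1 without 40 h, 2 without 46 or 48 h and 3 without 50 or 56 h. At 52 to 58 h against 44 to 50 h, no member was called, where 0.0102% of all genes were higher and 0.0305% lower, and 2 members passed at an unadjusted p under 0.05, against 11.0% of all genes. Over these tests and the linear one, 25 of the 46 members were called at least once, against 65.4% of all genes, and 21 never.

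The arrays at 40 and 42 h bore on several of these calls. The 42 h array held the highest value of 11 of the 46 members (23.9%), against 15.2% of all genes, and the 40 h array had the lowest median of the 24 arrays. The lowest value lay at 30 h for 9 members (19.6%, against 6.18% of all genes) and at 52 h for 10 (21.7%, against 8.78%). The single higher call at 36 to 42 h was lost without 12, 14, 16, 40 or 42 h. In a fit without both 40 and 42 h, chosen after the data were seen, 5 members were higher (13.3% of all genes) and 3 lower (8.73%) at 44 to 50 h than at the remaining 36 to 42 h arrays. The members called in that fit were Psmc6, Psmg4, Psmd14, Psmd4 and Psmb5, which were higher, and Psmb10, Psmd13 and Psma2, which were lower. Over the 46 h, the same fit called 11 rises (31.5% of all genes) and 8 falls (19.0%). The part of RNA or hybridisation quality in the values of these 2 arrays was not tested.

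**Figure D3:**
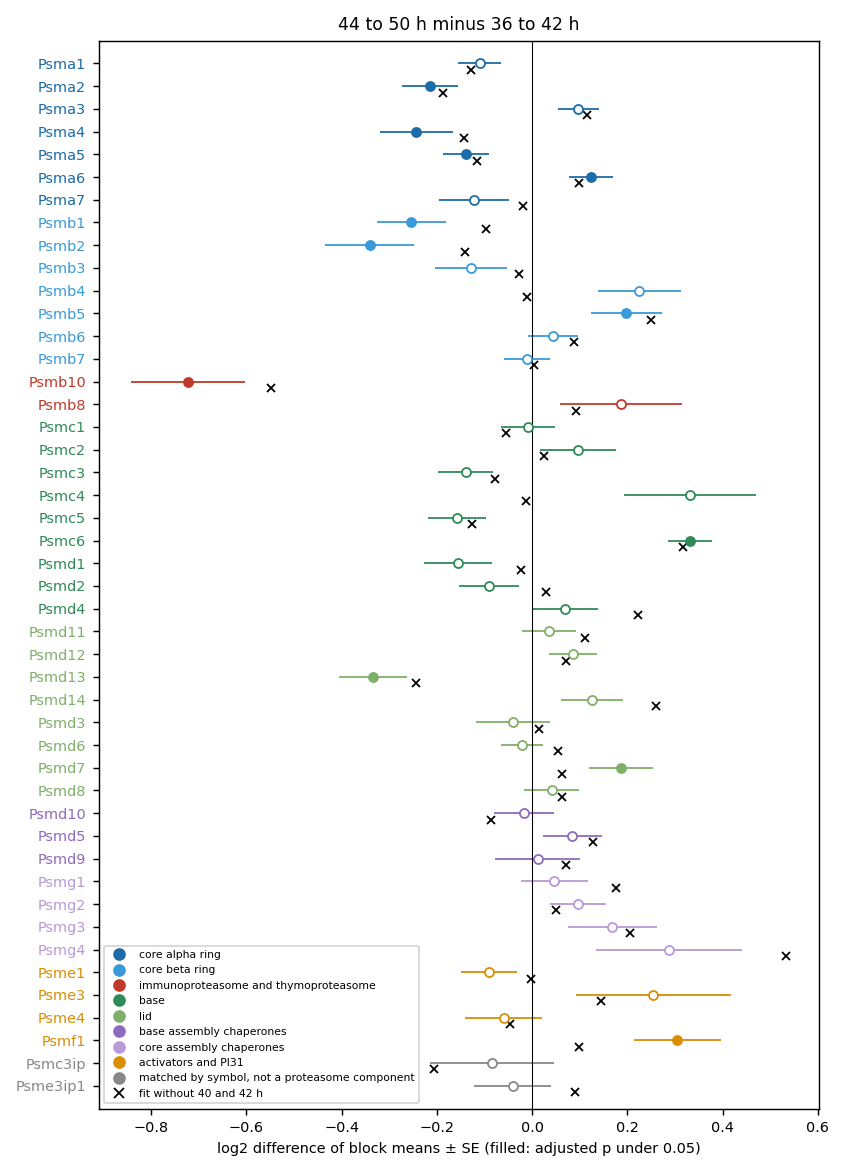
Mean log2 level at 44 to 50 h minus that at 36 to 42 h for each of the 46 measured members, with the standard error of the fit as bars, filled points for adjusted p under 0.05, and black crosses for the same difference in a fit without the 40 and 42 h arrays. The cross of Psmc6 stays close to its point, those of Psmb10 and Psmd13 lie nearer 0 than their points but still at -0.55 and -0.24, and those of Psmb2, Psmb1, Psmf1 and Psmc4 lie at -0.14, -0.10, 0.10 and -0.01.

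The immunoproteasome gene Psmb10 had the largest change of the family. Its log2 levels at 12 to 18 h were 11.05, 11.02, 11.00 and 10.79, and at 20 to 26 h 10.97, 10.74, 10.73 and 10.55. At 28 to 34 h they were 10.73, 10.57, 10.36 and 10.38, and at 36 to 42 h 10.28, 10.26, 10.69 and 10.54. The decline was thus gradual up to 38 h and was interrupted at 40 and 42 h. At 44 to 50 h the levels were 10.05, 9.70, 9.69 and 9.44, all below every earlier array, and at 52 to 58 h they were 9.30, 9.56, 9.54 and 9.46. The fitted change was -1.62 ± 0.138 log2 units over 46 h (SE, adjusted p = 7.82e-09), which puts the end of the line at 0.325 times its start. Psmb10 was lower at 36 to 42 h than at 12 to 18 h, by -0.53 ± 0.119 (adjusted p = 0.00238), and lower again at 44 to 50 h than at 36 to 42 h, by -0.72 ± 0.119 (adjusted p = 9.18e-05). Neither pair of spans overlapped. A fit on the arrays up to 42 h alone still gave a fall, of -0.993 expressed over 46 h (adjusted p = 0.000313).

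Psmb8, the immunoproteasome form of the chymotrypsin-like subunit, moved the other way at a low level. Its log2 level was 6.03 at the lowest array, at 12 h, had a median of 6.57 and reached 7.09 at 56 h. It averaged 6.35, 6.54, 6.57, 6.65, 6.83 and 6.88 over the 6 successive spans of 4 arrays, and the arrays of each span overlapped with those of the next. The fitted change was 0.59 ± 0.134 log2 units (adjusted p = 0.00114), and on the arrays up to 42 h alone it was 0.538 and not called (adjusted p = 0.0782). Psmb9, the remaining immunoproteasome subunit, did not pass the filter and lay between 3.74 and 4.40, with a mean of 4.04. Psmb11, the cutting subunit of the thymus, was at 2.17, the lowest value of the table, on all 24 arrays.

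Smaller changes were fitted for the constitutive counterparts, and the difference within a pair was not tested. Psmb7, which Psmb10 replaces, lay between 13.08 and 13.34, with a fitted change of -0.05 ± 0.0497 (adjusted p = 0.41). Psmb5, which Psmb8 replaces and inhibitors such as bortezomib bind, lay between 11.65 and 12.13, with a fitted change of 0.18 ± 0.106 (adjusted p = 0.182). Psmb6, which Psmb9 replaces, lay between 12.87 and 13.22 and rose by 0.17 ± 0.063 (adjusted p = 0.0371). The rise of Psmb6 is small, and its call was lost without any one of 12 of the 24 arrays. Levels of different probe sets cannot be set against each other on these arrays, so no share of immunoproteasome in all proteasomes was computed.

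**Figure D4:**
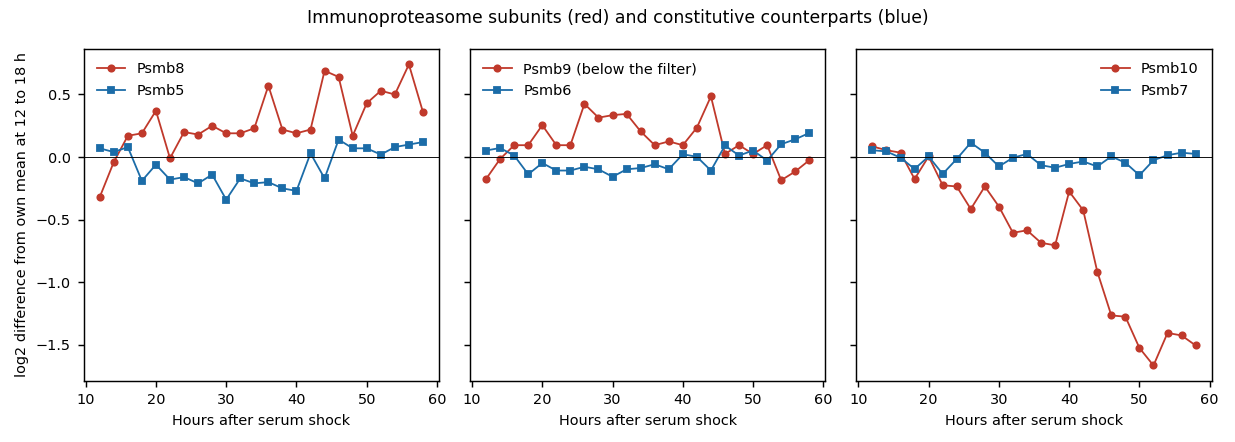
Log2 level of each immunoproteasome gene (red circles) and of the constitutive gene it replaces (blue squares) at each hour after the serum shock, each minus its own mean at 12 to 18 h, with 1 array per point. Psmb10 falls below -1 from 46 h while Psmb7 stays near 0, and Psmb8 lies above 0 on most arrays after 14 h.

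Among the 7 measured gate subunits of the alpha ring, Psma2 fell and Psma3 rose, with fitted changes of -0.26 and 0.17. The call of Psma3 was lost without 58 h (0.145, adjusted p = 0.0524) and after centring. At 44 to 50 h, Psma2 had log2 levels of 13.39, 13.33, 13.25 and 13.34, against 13.56, 13.47, 13.41 and 13.73 at 36 to 42 h. The spans did not overlap, and the difference remained called without 40 and 42 h (adjusted p = 0.0246). Psma4, at -0.24, and Psma5, at -0.14, were also lower at 44 to 50 h, and Psma6 was higher by 0.12. Without 40 and 42 h the differences were -0.14 for Psma4, -0.12 for Psma5 and 0.10 for Psma6, and none of the 3 was called. The second probe set of Psma5 gave -0.23 for the step and was called, while that of Psma6 gave 0.03 and was not (adjusted p = 0.722). This second set of Psma6 was called lower at 20 to 26 h than at 12 to 18 h, by -0.215 (adjusted p = 0.0337). For Psma4 the single array at 42 h, at 13.47, was the highest of the 24. Psma8, the alpha subunit of testis, lay at the lowest value of the table on 22 of 24 arrays.

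In the beta ring, Psmb2 and Psmb1, which carry no cutting site, had their highest levels at 40 and 42 h. Psmb2 had levels of 10.34, 10.34, 10.16 and 10.15 at 44 to 50 h, against 10.35, 10.43, 10.78 and 10.80 at 36 to 42 h, a difference of -0.34 ± 0.0926 (adjusted p = 0.00739). Psmb1 had 12.44, 12.47, 12.38 and 12.51, against 12.56, 12.53, 12.85 and 12.87. Psmb2 stood at 10.34 at 44 h and 10.43 at 38 h, and Psmb1 at 12.44 at 44 h and 12.53 at 38 h, so the arrays between them stood out. Without 40 and 42 h the differences were -0.14 for Psmb2 (adjusted p = 0.276) and -0.10 for Psmb1 (adjusted p = 0.326). Psmb5 was higher at 44 to 50 h, with 11.82, 12.13, 12.06 and 12.06, against 11.79, 11.74, 11.72 and 12.02 at 36 to 42 h. That difference was 0.20 ± 0.075 (adjusted p = 0.0473), the spans overlapped, and the call was lost without any one of 19 of the 24 arrays. It was 0.25 without 40 and 42 h (adjusted p = 0.0362).

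Psmb4 depended on the probe set. Its set of highest mean is of a kind that Affymetrix marks as prone to cross-hybridisation. It read 13.54 and 13.68 at 40 and 42 h, against 14.08 at 38 h, and its linear change was not called. The other measured probe set of Psmb4 rose by 0.27 ± 0.0548 over 46 h (adjusted p = 0.000449). It was also called higher at 36 to 42 h than at 12 to 18 h, by 0.19 (adjusted p = 0.0111). There the set of highest mean gave -0.22 and was not called. On the arrays up to 42 h alone, the set of highest mean was called lower (-0.486 expressed over 46 h, adjusted p = 0.0239). Psmb4 was singled out after its values were seen.

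Of the 9 base genes, the ATPase gene Psmc6 showed the clearest step. It had log2 levels of 13.59, 13.66, 13.54 and 13.69 at 44 to 50 h, against 13.35, 13.26, 13.28 and 13.27 at 36 to 42 h. The spans did not overlap and the difference was 0.33 ± 0.0457 (adjusted p = 1.1e-05). The 2 other measured probe sets gave 0.56 and 0.49, both called. Both had also been called lower at 36 to 42 h than at 12 to 18 h, by -0.49 (adjusted p = 0.0317) and -0.27 (adjusted p = 0.00735), where the brightest set was not called. In the first of them the spans of the step overlapped and the change over 46 h was 0.17, not called, so the flat level before the step is that of the brightest set. In that set all earlier arrays lay between 13.18 and 13.35 and all later ones between 13.50 and 13.69, so the fitted change of 0.41 ± 0.0795 over 46 h (adjusted p = 0.000243) averages over a step. On the arrays up to 42 h alone it was -0.01 (adjusted p = 0.968).

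The ubiquitin receptor gene Psmd4 rose by 0.42 ± 0.0684 over 46 h (adjusted p = 4.59e-05), and its second probe set by 0.29. It had 12.41 and 12.38 at 36 and 38 h and 12.63 and 12.77 at 40 and 42 h, and remained between 12.51 and 12.68 from 44 h on. The ATPase gene Psmc5 fell by 0.28 on the log2 scale (change -0.28 ± 0.0697, adjusted p = 0.00283). Psmc4, another ATPase gene, was called lower at 36 to 42 h than at 12 to 18 h, by -0.41 ± 0.139 (adjusted p = 0.032). Its levels were 13.35, 13.35, 12.92 and 12.40 at 36 to 42 h, against 13.38, 13.43, 13.33 and 13.53 at 12 to 18 h. Without 40 and 42 h the difference was -0.07 (adjusted p = 0.67), and the second probe set gave -0.05 and was not called. The scaffold genes Psmd1 and Psmd2 and the ATPase genes Psmc1, Psmc2 and Psmc3 were called in none of the tests.

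In the lid, Psmd13 and Psmd14 parted. Psmd13, the gene of a structural subunit, had 11.64, 11.59, 11.46 and 11.54 at 44 to 50 h, against 11.83, 11.77, 11.90 and 12.06 at 36 to 42 h. That difference was -0.33 ± 0.071 (adjusted p = 0.00107) with no overlap, and the second probe set gave -0.36, also called. Over 46 h Psmd13 changed by -0.40 ± 0.0933 (adjusted p = 0.00159). The gene of the deubiquitinating enzyme of the lid, Psmd14, changed by 0.40 ± 0.0711 (adjusted p = 0.000104). On the arrays up to 42 h alone, neither change was called. Expressed over 46 h, they were 0.00388 for Psmd13 (adjusted p = 0.985) and 0.198 for Psmd14 (adjusted p = 0.171). Psmd14 lay between 12.48 and 12.65 up to 38 h and between 12.65 and 12.93 from 40 h on.

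The lid genes Psmd11 and Psmd12 rose by 0.19 each over 46 h, and these calls were lost when the arrays were centred on their medians. The other measured probe sets of Psmd11 gave 0.28 and 0.65, both called, and 0.05, not called (adjusted p = 0.684). Psmd7, the partner of Psmd14, was higher at 44 to 50 h, by 0.19 ± 0.0671 (adjusted p = 0.0379). It had 11.87, 12.04, 12.03 and 12.02 at 44 to 50 h, against 11.94, 11.91, 11.64 and 11.73 at 36 to 42 h. The spans overlapped, and without 40 and 42 h the difference was 0.06 (adjusted p = 0.555). Psmd3, Psmd6 and Psmd8 were called in none of the tests by their brightest probe set. The second set of Psmd6 was called lower over 46 h, by -0.64 (adjusted p = 0.0159), and at 36 to 42 h against 12 to 18 h, by -0.51 (adjusted p = 0.0444).

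Assembly of the core begins on dimeric chaperones, of which Psmg1 pairs with Psmg2 and Psmg3 with Psmg4. Psmg2 had 11.59, 11.50, 11.44 and 11.47 at 36 to 42 h, against 11.84, 11.89, 11.83 and 11.71 at 12 to 18 h, a difference of -0.31 ± 0.0583 (adjusted p = 0.000411) with no overlap. The second probe set gave -0.27, also called. Its levels lay between 11.71 and 11.89 up to 28 h and between 11.44 and 11.73 from 30 h on. Psmg4, a dim gene, rose over 46 h by 0.66 ± 0.195 (adjusted p = 0.00938), but its lowest arrays stood in the middle of the course. It had 7.55 at 12 h, 6.83 at 30 h, 6.86 at 34 h and 7.84 at 50 h. Psmg1 and Psmg3 were not called in any test. Of the chaperones of the base, Psmd5 rose by 0.20 over 46 h, a call lost after centring, and Psmd9 and Psmd10 were called in none of the tests.

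None of the alternative activators was called over the 46 h. Psme1, a subunit of the interferon-inducible cap, was higher at 36 to 42 h than at 12 to 18 h, with 12.14, 12.07, 12.24 and 12.32 against 12.02, 12.00, 12.03 and 12.02. The difference was 0.18 ± 0.0584 (adjusted p = 0.0306), with no overlap, and it was 0.09 without 40 and 42 h (adjusted p = 0.362). Over 46 h, the fitted change was 0.05 ± 0.0684 for Psme1 (adjusted p = 0.571), -0.12 ± 0.197 for the nuclear activator gene Psme3 (adjusted p = 0.656) and 0.11 ± 0.0879 for Psme4 (adjusted p = 0.329). Psme3 had single low arrays at 50 h, at 10.09, and at 40 h, at 10.43, against a median of 10.97. Its second probe set gave 0.34 over 46 h, not called (adjusted p = 0.052). On the arrays up to 42 h alone, the brightest set of Psme3 was called lower (-0.661 expressed over 46 h, adjusted p = 0.00272). Psme1 was called higher there (0.337, adjusted p = 0.0101) and Psme4 was not called (0.298, adjusted p = 0.184). The probe set of Psme2 carries more than 1 symbol and was not used.

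Psmf1 encodes PI31, known as an inhibitor of the core in vitro and as an adaptor for proteasome transport. Its probe set of highest mean had 9.79, 9.83, 9.45 and 9.35 at 36 to 42 h, against 10.05, 10.06, 9.88 and 10.05 at 12 to 18 h, and was called lower by -0.40 ± 0.0916 (adjusted p = 0.00246). It was higher again at 44 to 50 h than at 36 to 42 h, by 0.31 ± 0.0916 (adjusted p = 0.0143). The other measured probe sets gave 0.04 and -0.03 for the second difference, neither called, so its sign differed between probe sets. For the first difference, the set that gave 0.04 was also called lower, by -0.245 (adjusted p = 0.0277). The remaining set gave -0.03 there and was not called. Both calls of the set of highest mean were lost without 40 and 42 h (differences -0.20 and 0.10).

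Gene lists were read against the shares of all genes called, 26.3% higher and 16.4% lower over 46 h and 20.5% higher and 12.7% lower in the step comparison. Regulators of proteasome genes were read from a list of 9 genes, of which 8 were measured. Over 46 h 2 rose and 1 fell, and at 44 to 50 h 2 were higher and 2 lower than at 36 to 42 h. Nfe2l1, the factor that drives proteasome genes when the proteasome is impaired, had 11.13, 11.30, 11.34 and 10.69 at 44 to 50 h, against 10.09, 10.23, 10.16 and 10.63 at 36 to 42 h. The spans did not overlap, and the difference was 0.84 ± 0.11 (adjusted p = 5.8e-06). Up to 40 h its level lay between 10.09 and 10.35, and over 46 h it rose by 1.34 ± 0.183 (adjusted p = 5.38e-06). Ngly1, which removes sugar chains from that factor and so activates it, changed by -0.29 ± 0.0865 over 46 h (adjusted p = 0.00968), and Nfyb, a subunit of NF-Y, by 0.29 ± 0.106 (adjusted p = 0.0302). At 44 to 50 h, Nfyb was higher by 0.38 ± 0.0953 (adjusted p = 0.00443) and the oxidative stress factor Nfe2l2 lower by -0.21 ± 0.0469 (adjusted p = 0.0016). Nlrc5, the activator of class I and immunoproteasome genes, was at the lowest value of the table on all arrays.

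**Figure D5:**
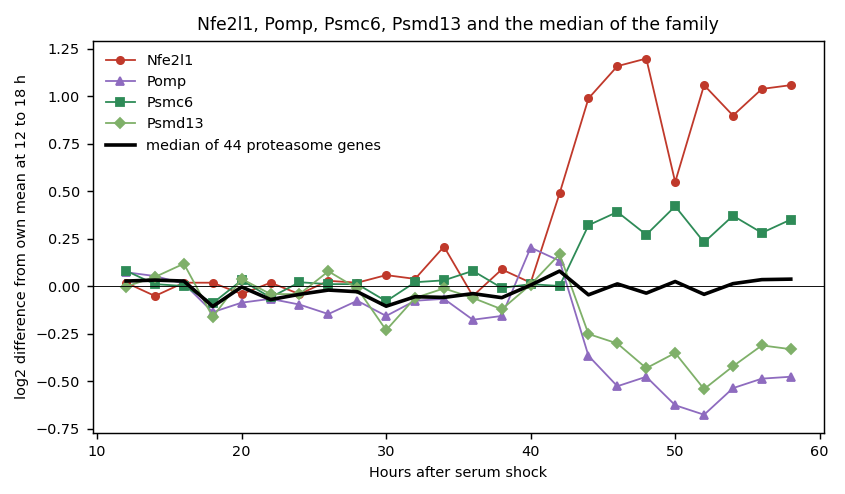
Log2 level of Nfe2l1, Pomp, Psmc6 and Psmd13 at each hour after the serum shock, each minus its own mean at 12 to 18 h, with 1 array per point, and the median over the 44 measured proteasome genes as a black line. From 44 h on Nfe2l1 and Psmc6 lie above 0 and Pomp and Psmd13 below it, while the median of the family stays near 0.

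Over the same step, the 5 members with the antioxidant element in the window shown above had differences of 0.20 for Psmb5, 0.04 for Psmb6, 0.33 for Psmc6, 0.09 for Psmd12 and 0.01 for Psmd9. Psmb5 and Psmc6 were called higher, as were 20.5% of all genes, and the other 3 were not called. The call of Psmb5 was lost without any one of 19 of the 24 arrays. No test was made of these genes as a group.

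Partners of the proteasome outside the symbol rule were a list of 10 genes, all measured, of which 2 rose and 3 fell over 46 h, against 26.3% and 16.4% of all genes, and 2 were higher and 1 lower at 44 to 50 h. Pomp, the chaperone that completes the core, had 12.03, 11.87, 11.92 and 11.77 at 44 to 50 h, against 12.22, 12.24, 12.60 and 12.53 at 36 to 42 h, a difference of -0.50 ± 0.0754 (adjusted p = 3.36e-05). It stayed between 11.72 and 11.92 from 52 h on. Akirin2, which brings proteasomes into the nucleus, rose by 0.45 ± 0.0538 over 46 h (adjusted p = 1e-06). Sem1, a small lid subunit, changed by -0.51 ± 0.119 (adjusted p = 0.00158). Zfand5, the gene of a proteasome activator, was higher at 44 to 50 h, by 0.25 ± 0.0797 (adjusted p = 0.0226).

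Genes of ubiquitin supply and substrate delivery, 10 measured, gave 6 rises and 1 fall over 46 h, against 26.3% and 16.4% of all genes. In the step comparison 4 were higher and 1 lower. Sqstm1, the autophagy receptor that also carries ubiquitinated proteins, had 14.17, 14.47, 14.55 and 14.28 at 44 to 50 h, against 13.57, 13.70, 14.02 and 14.07 at 36 to 42 h, a difference of 0.53 ± 0.0891 (adjusted p = 0.000118). Zfand2a, a stress-induced proteasome-associated protein gene, was higher by 0.57 ± 0.0835 (adjusted p = 2.14e-05). The shuttle factor gene Ubqln2 changed by -0.50 ± 0.0746 over 46 h (adjusted p = 1.4e-05).

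Class I antigen processing, the pathway that uses immunoproteasome products, was read from 11 measured genes, of which 4 rose and 3 fell over 46 h, against 26.3% and 16.4% of all genes. In the step comparison 1 was higher and 2 were lower. The class I heavy chain genes H2-D1 and H2-K1 changed by 0.45 ± 0.0882 (adjusted p = 0.000289) and 0.37 ± 0.084 (adjusted p = 0.00122). The other probe sets of H2-D1 gave -0.12 to 2.44. The peptide-trimming enzyme gene Erap1 changed by -0.70 ± 0.153 (adjusted p = 0.000901), where its other probe set gave -0.11 and was not called (adjusted p = 0.373), and the chaperone gene Calr by -0.54 ± 0.122 (adjusted p = 0.00113). Calr had 13.84, 13.67, 13.90 and 13.91 at 44 to 50 h, against 14.21, 14.22, 14.38 and 14.56 at 36 to 42 h. The pathway thus had called genes in both directions.

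The cells carried hepatocyte markers, with means of 15.97 for Alb and 11.93 for Hnf4a on the log2 scale. Of 6 measured hepatocyte markers 1 rose and 4 fell over 46 h, against 26.3% and 16.4% of all genes. Ttr, the largest change of the list at the step, was lower at 44 to 50 h than at 36 to 42 h by -0.98 ± 0.138 (adjusted p = 1.44e-05). The cells also carried markers of bile duct and progenitor cells. All 4 were measured, with means of 15.44 for Krt19, 12.53 for Krt7, 10.83 for Epcam and 8.649 for Sox9. Of these 4 markers 1 fell over 46 h, and their part in the results was not tested. None of 6 fibroblast, 4 endothelial and 3 lymphocyte markers passed the filter, and the pan-leukocyte marker Ptprc was at 2.17 on average. Of 5 macrophage markers, Csf1r at 5.37 and Cd68 at 6.15 passed and Marco was at the lowest value throughout. The level of Cd68 was higher at 36 to 42 h than at 12 to 18 h, by 2.15 ± 0.28 (adjusted p = 6.5e-06), over the span in which Psmb10 was lower, and its part in that difference was not tested.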

How the data were processed

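RNA of 24 MMH-D3 samples was hybridised to Affymetrix mouse arrays of 1 colour. Per the submitters' processing notes, the table the authors deposited was produced with GCRMA, an algorithm that subtracts a sequence-dependent background, adjusts the arrays to each other and reduces each probe set to a single log2 value. The version and settings of GCRMA are not given in the sources used here, and that the unit is log2 was judged from the range of the values. The lowest value, 2.17, made up 41.2% of the table, so a gene at it has only an upper bound. The 64 control probe sets of 45101 were left out. All 49 members matched a RefSeq gene by Entrez ID.

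Tests used limma 3.58.1 in R 4.3.3, with a variance prior that follows signal intensity, on the 18526 probe sets that reached 5 on the log2 scale in 6 or more arrays, and Benjamini-Hochberg adjustment over all of them at a threshold of 0.05. The first model joined a 24 h cosine curve to a linear term over 46 h. The second held the means of 6 spans of 4 consecutive arrays (18 residual degrees of freedom), which are not replicates, so a trend within a span adds to its error. Counts are over genes. The scripts were tested on simulated data.

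The members, the lists and the step comparison were chosen with earlier results of these data known. The fitted differences given with errors are those of the called members of the 3 smallest p in each direction of each test, of the immunoproteasome genes, their counterparts and the activators, and of up to 3 genes of smallest p per list. Further called members are named with their values so that each complex is described whole, and were chosen after their values were seen. Alternatives were no filter, quantile normalization, centring, 1 variance prior, the mean of a gene's probe sets, other probe sets, other drift terms, and arrays left out. A longer interferon-response motif was also searched in the promoters and is not reported here.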

Additional observations from a re-analysis of the deposited data

How the results depend on the processing

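Of 32 called differences of single members, 22 kept their call without each single array and 22 kept it without 40 and 42 h together, a setting added after the data were seen. Centring kept 24 and quantile normalization 31. At 44 to 50 h against 36 to 42 h, the higher count of 5 was 2 with no filter, 2 with centring, 2 with 1 variance prior, 3 with the mean of probe sets and 1 on the 8 arrays alone, and the lower count of 7 was 11 with centring, 2 on the 8 arrays and 3 without 40 and 42 h. Quantile normalization gave 7 higher and 8 lower there. The count of 10 rises over 46 h was 5 with centring, 2 without 44 to 58 h and 16 without 12 to 18 h. The 2 without 44 to 58 h were Psme1 and Psmd1, which were not among the 10, so none of the 10 kept its call there. The count of 5 falls was 8 without 40 and 42 h. At 36 to 42 h against 12 to 18 h, the 1 higher member became 0 with no filter, on the 8 arrays or without 40 and 42 h, and the 4 lower became 2 on the 8 arrays. At 20 to 26 h, the higher count of 0 was 1 with centring, with the mean of probe sets and without 40 and 42 h, and the lower count of 0 was 1 with the mean of probe sets and 2 without 40 and 42 h. The rhythm count of 0 was 1 with a quadratic drift and 1 with no drift. Leaving out single arrays gave 0 to 1 rhythmic members, 8 to 11 rises, 5 to 6 falls, 0 to 1 higher and 0 to 2 lower at 20 to 26 h, 0 to 1 higher and 3 to 6 lower at 36 to 42 h, 1 to 7 higher and 5 to 9 lower at 44 to 50 h, and 0 to 0 in both directions at 52 to 58 h. The step's higher count was 1 without 40 h, 2 without 46 h, 2 without 48 h, 3 without 50 h and 3 without 56 h. Signs turned without 44 to 58 h for Psma3 (-0.0534), Psmb6 (-0.0816), Psmc6 (-0.00503) and Psmd13 (0.00388), and in another probe set of Psmf1 at the step (-0.0294). The cause was not tested. No paired analysis was possible because each time point had 1 sample.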
